A study of Mus musculus with 6 samples.

Results

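The 10 genes followed here mark the blood monocytes of the mouse and were measured in bulk lung RNA-seq. They were chosen by name for their known roles in monocytes, at a time when earlier results of these data were known. They are 10 of the 56262 genes in the deposited table, and all 10 were among the 17120 genes with enough counts to be tested. Ly6c2, F13a1 and Cd14 mark classical monocytes, Treml4, Fcgr4 and Spn mark patrolling monocytes, and Csf1r, Itgam, Itgal and Lyz2 are carried by both kinds. The lungs came from 3 R/R mice and 3 WT littermates, all 8 weeks of age and untreated, on the C57BL/6 background. R/R mice carry K329R and K332R in RBM47, an RNA-binding protein, on both alleles of every cell, so no cell type was targeted by the knock-in. The study replaced these lysines as places where the ubiquitin-like protein ISG15 can be joined to RBM47. The comparison of R/R with WT lungs asked how the transcripts of these cells stood in the mutant lung before any challenge.

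Classical monocytes leave the bone marrow through the chemokine receptor CCR2, are rich in Ly6C, and enter inflamed tissue, where they can become macrophages or dendritic cells. Patrolling monocytes have little Ly6C, depend on the nuclear receptor NR4A1, and crawl along the inner wall of small vessels, where they survey and clear the endothelium. The lung holds many of both in its capillaries. Several of the shared genes are also active in other cells: Lyz2 in alveolar macrophages, neutrophils and alveolar type 2 cells, Itgal in lymphocytes, and Itgam in neutrophils.

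Levels are counts per library total, multiplied to a common base and TMM-scaled by edgeR (CPM). Each lung had between 16501092 and 18141067 read pairs counted on genes, so that 1 count was worth between 0.0551 and 0.0606 CPM. Lungs of the same genotype correlated at r between 0.986 and 0.990 over log2 CPM of the tested genes, and lungs of different genotype at r between 0.983 and 0.986. The median log2 fold change of all tested genes was 0.00. Of 10 marker genes of lung epithelium and other lung tissue, all were detected, with summed levels of 31461 to 35125 CPM in R/R lungs and 25391 to 32096 CPM in WT lungs.

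Of the 10 monocyte genes, 9 had a fitted level below WT in R/R lungs, where 48.8% of all tested genes did, and 1, Lyz2, had a level above it. The number that passed an adjusted p of 0.05 was 0 in edgeR's quasi-likelihood test, against 1.75% of all tested genes (1.1% lower and 0.648% higher in R/R). At an unadjusted p under 0.05 there were 5, namely Treml4, Itgal, Itgam and Spn with lower and Lyz2 with higher R/R levels, against 14.2% of all tested genes (7.68% lower and 6.54% higher). DESeq2 called 3 of the 10 (Treml4, Itgal and Lyz2), where it called 3.16% of all tested genes, and limma-voom called 0 and 1.47%. With no filter beyond 1 count, edgeR called 4 of the 10, those of DESeq2 and Spn, against 3.53% of the genes then tested. At an adjusted p under 0.1 edgeR called Treml4 and Itgal, against 3.2% of all tested genes. All 3 R/R lungs lay under the whole WT range for Treml4, Itgal and Itgam and over it for Lyz2, so that 4 of 10 did not overlap, against 18.7% of all tested genes (9.5% under and 9.17% over). The median log2 fold change of the 10 was -0.23. Whole lung RNA was measured, and fewer cells of a type and less RNA per cell cannot be told apart.

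**Figure D1:**
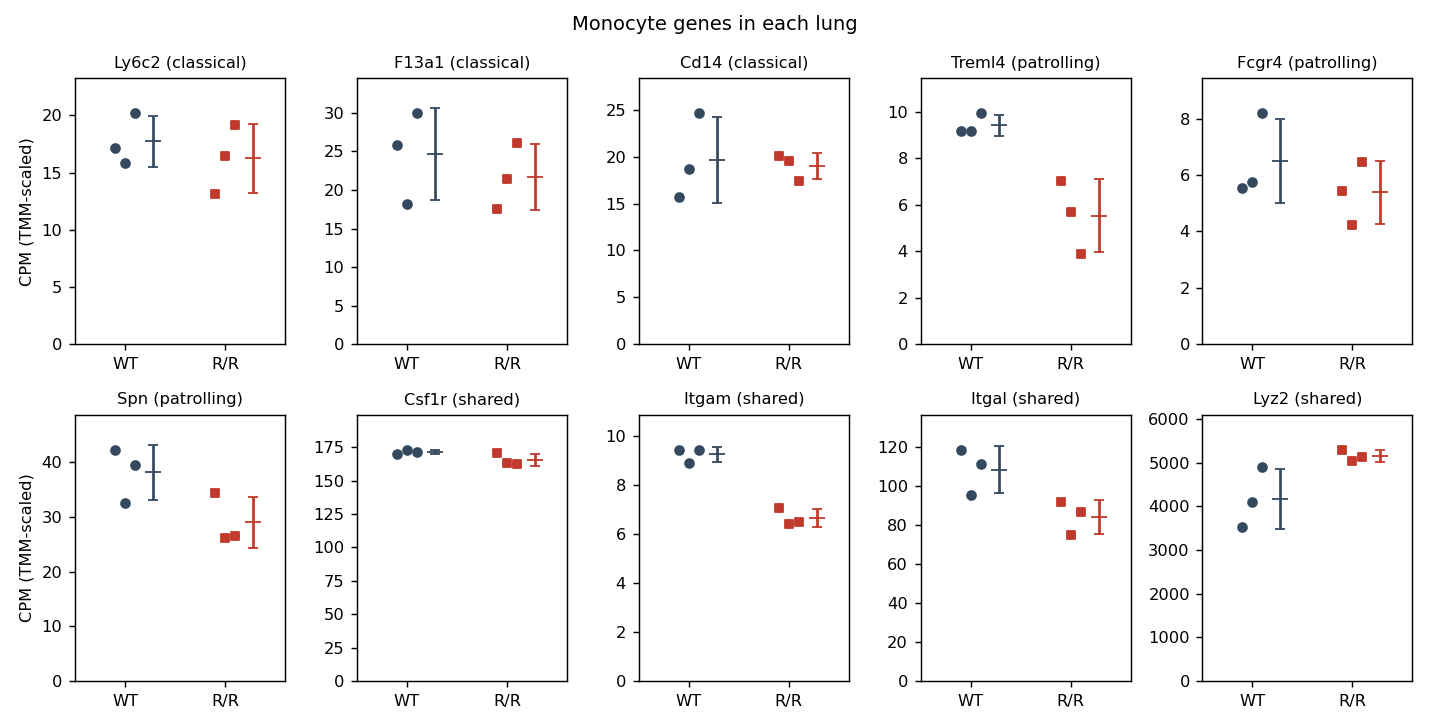
CPM (TMM-scaled, linear axes from 0) of each monocyte gene in the 3 WT lungs (circles) and the 3 R/R lungs (squares), with the mean and SD beside the points. Treml4, Itgam and Itgal have all R/R points below all WT points, Lyz2 has all above, and the other 6 panels overlap.

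Among the patrolling genes, Treml4 stood farthest from WT. Treml4 encodes a receptor of the TREM family on patrolling monocytes that binds dying cells, and lies at chr17:48264295-48275360 on the plus strand of GRCm38. Its level was 7.05, 5.68 and 3.89 CPM in the R/R lungs, in the order of replicates 1, 2 and 3 used throughout, and 9.17, 9.16 and 9.95 CPM in the WT lungs. The WT lungs lay close together, while the R/R lungs were spread and all below them. The counts behind these levels were 66 to 127 read pairs in R/R lungs and 151 to 170 in WT lungs. The log2 fold change was -0.76 (SE 0.19), a difference in level of -41.1%, with an edgeR p of 0.00191 and an adjusted p of 0.0761. In the exact two-sided permutation test p was 0.1, the smallest that 3 against 3 lungs allow. With single lungs left out, the edgeR adjusted p of Treml4 was 0.0377 without R/R replicate 1 (log2 fold change -0.98, in a fit that called 1.03% of all genes tested), 0.204 without R/R replicate 2 (-0.78) and 0.151 without R/R replicate 3 (-0.56). Without single WT lungs it was 0.0977 to 0.198.

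Spn encodes CD43, a heavily glycosylated surface protein that is abundant on patrolling monocytes and also present on T cells. It measured 34.4, 26.2 and 26.4 CPM in the R/R lungs and 42.3, 32.6 and 39.6 CPM in the WT lungs. R/R replicate 1 lay above WT replicate 2, and the groups overlapped through these lungs only. Spn had a log2 fold change of -0.39 (SE 0.12, edgeR adjusted p = 0.153). Fcgr4 encodes an activating receptor for IgG antibodies. Its CPM was 5.44, 4.24 and 6.48 in the R/R lungs and 5.53, 5.74 and 8.20 in the WT lungs, with overlapping groups. Fcgr4 had a log2 fold change of -0.27 (SE 0.21, edgeR adjusted p = 0.635), and its exact permutation p was 0.4. Over the 3 patrolling genes the mean log2 CPM was 3.46, 3.11 and 3.13 in R/R lungs and 3.69, 3.58 and 3.89 in WT lungs, without overlap.

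Shown are the promoters of Treml4, Itgam and Spn, members with a lower R/R level and an unadjusted edgeR p under 0.05. Itgal met the same terms but had no usable window. The promoters were searched for the letters GAGGAA, which PU.1, the transcription factor that myeloid cells depend on, is known to bind. Each sequence holds the bases just upstream of the start sites in RefSeq on GRCm38.p6, read 5′ to 3′ on the strand of the gene, with GAGGAA or its reverse complement TTCCTC in capitals.
Treml4, chr17:48264045-48264294, plus strand: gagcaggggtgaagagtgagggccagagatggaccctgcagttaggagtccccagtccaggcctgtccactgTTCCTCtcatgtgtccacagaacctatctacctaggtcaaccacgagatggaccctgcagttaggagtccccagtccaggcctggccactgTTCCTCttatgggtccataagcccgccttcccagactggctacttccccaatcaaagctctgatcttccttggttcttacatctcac
Itgam, chr7:128062390-128062639, plus strand: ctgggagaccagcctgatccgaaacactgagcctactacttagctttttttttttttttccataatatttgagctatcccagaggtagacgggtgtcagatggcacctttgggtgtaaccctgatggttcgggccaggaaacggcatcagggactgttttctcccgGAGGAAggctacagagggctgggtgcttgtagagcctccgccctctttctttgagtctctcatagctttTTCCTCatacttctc
Spn, chr7:127137824-127138073, minus strand: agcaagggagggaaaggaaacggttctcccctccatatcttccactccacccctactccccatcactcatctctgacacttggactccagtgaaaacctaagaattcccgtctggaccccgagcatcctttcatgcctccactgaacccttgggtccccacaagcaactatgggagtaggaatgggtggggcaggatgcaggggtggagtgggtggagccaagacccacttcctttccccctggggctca

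The letters GAGGAA occurred 2 times in the Treml4 window and 2 times in the Itgam window, and were not in the Spn window. They also occurred once in the windows of Fcgr4, F13a1 and Ly6c2, whose levels overlapped between genotypes, and not in that of Lyz2 (windows of 201 to 250 bases). On either strand, 23.3% of 32851 RefSeq promoter windows of 250 bases held them. The NR4A1 element AAAGGTCA was in none of these 7 genes' windows and in 1.34% of all windows. The KLF box CCACCC was in the Spn window 4 times, counted on both strands, and in 28.1% of all windows. Such letters describe the sequence and show no binding.

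The classical genes had log2 fold changes closer to 0, and their groups overlapped for each gene. Ly6c2 encodes a surface protein anchored by a lipid, whose antibody defines this subset. Its level was 13.2, 16.4 and 19.1 CPM in R/R lungs and 17.1, 15.8 and 20.2 CPM in WT lungs, and every R/R lung but replicate 1 lay within the WT range. Ly6c2 had a log2 fold change of -0.13 (SE 0.14, edgeR adjusted p = 0.758). F13a1 encodes the A subunit of coagulation factor XIII, the enzyme that cross-links fibrin, and is also made by platelets' precursors and tissue macrophages. It measured 17.6, 21.4 and 26.03 CPM in R/R lungs and 25.8, 18.2 and 29.97 CPM in WT lungs, with a log2 fold change of -0.19 (SE 0.17, edgeR adjusted p = 0.701). Cd14 encodes the co-receptor that hands LPS to TLR4. It measured 20.03, 19.5 and 17.4 CPM in R/R lungs and 15.7, 18.7 and 24.6 CPM in WT lungs, and the R/R lungs all lay inside the WT range. Cd14 had a log2 fold change of -0.05 (SE 0.14, edgeR adjusted p = 0.927). Exact permutation p-values were 0.5 for Ly6c2, 0.6 for F13a1 and 1.0 for Cd14. The signs of Ly6c2 and Cd14 each turned when single lungs were left out, with Ly6c2 reaching 0.0047 and Cd14 reaching 0.14.

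Over the 3 classical genes the mean log2 CPM was 4.23 ± 0.15 in R/R and 4.34 ± 0.26 in WT lungs (SD, n = 3 each), a difference of -0.11, and the groups overlapped. The patrolling mean was 3.23 ± 0.20 in R/R and 3.72 ± 0.15 in WT lungs, a difference of -0.49. The patrolling mean minus the classical mean, taken within each lung, was -0.60, -1.14 and -1.23 in R/R lungs and -0.56, -0.55 and -0.73 in WT lungs. R/R replicate 1 lay inside the WT range of this quantity, so that a difference between the 2 subsets was not separated from the spread between lungs.

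Ly6c2 and Lyz2 each have a near copy in the genome, and reads that fit both copies equally were not counted. The start of each coding sequence is printed to show how the copies can be told apart. The sequences are bases 1 to 90 from the start codon, taken from GENCODE M21 transcripts on GRCm38, and the capitals mark bases that differ within the pair.
Ly6c2: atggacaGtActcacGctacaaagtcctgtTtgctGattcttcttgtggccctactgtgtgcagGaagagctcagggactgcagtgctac
Ly6c1: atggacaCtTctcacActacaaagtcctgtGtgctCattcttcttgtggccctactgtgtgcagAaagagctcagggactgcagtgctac
Lyz2: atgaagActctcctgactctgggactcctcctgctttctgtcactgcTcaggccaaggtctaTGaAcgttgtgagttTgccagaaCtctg
Lyz1: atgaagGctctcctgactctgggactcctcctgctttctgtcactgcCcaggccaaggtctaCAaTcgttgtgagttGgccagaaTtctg

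The pair Ly6c2 and Ly6c1 shared 384 of 393 coding bases (97.7%), and Lyz2 and Lyz1 shared 422 of 444 (95.0%). Of 2737 windows of 150 bases in Ly6c2 transcripts, 39 (1.42%) were found unchanged in Ly6c1, while no window of Lyz2 was found in Lyz1. Ly6c1, which is expressed by endothelium, was at 175 to 181 CPM in R/R and 171 to 189 CPM in WT lungs, with overlap and a log2 fold change of 0.00 (edgeR adjusted p = 0.998). Lyz1 was at 238 to 330 CPM in R/R and 153 to 348 CPM in WT lungs, with overlap (log2 fold change 0.36, edgeR adjusted p = 0.547).

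Among the shared genes, the integrins were lower in every R/R lung. Itgal encodes the αL chain of LFA-1, which holds leukocytes to ICAM-1 on endothelium, and lies at chr7:127296260-127335138 on the plus strand of GRCm38. It measured 91.9, 74.8 and 86.5 CPM in R/R lungs and 118.7, 95.3 and 111.4 CPM in WT lungs. The groups did not overlap, although R/R replicate 1 and WT replicate 2 were close. The log2 fold change was -0.36 (SE 0.09), a difference in level of -22.1%, with an edgeR p of 0.00205 and an adjusted p of 0.0786.

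Itgam encodes the αM chain of Mac-1, the complement receptor known as CD11b, and lies at chr7:128062640-128118491 on the plus strand of GRCm38. It measured 7.05, 6.40 and 6.48 CPM in R/R lungs and 9.41, 8.89 and 9.43 CPM in WT lungs, and the lungs of each genotype lay close together. Itgam had a log2 fold change of -0.48 (SE 0.13), a difference in level of -28.1%, with an edgeR adjusted p of 0.106. Of its 5024 exon bases, as the deposited table lists them, 3450 (68.7%) also belong to Gm49368, a gene model on the same strand. Read pairs that overlap both were not counted, and Gm49368 itself had 0 to 5 counts a lung. The Itgam values therefore rest on the remaining 1574 exon bases and 107 to 161 read pairs a lung.

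Itgb2, the chain that both integrins need as a partner, overlapped between genotypes. It was at 129.6, 100.1 and 120.7 CPM in R/R lungs and 124.6, 103.8 and 129.8 CPM in WT lungs, with a log2 fold change of -0.03 (edgeR adjusted p = 0.935) that turned sign when R/R replicate 2 or WT replicate 3 was left out. Within each lung, log2 Itgal minus log2 Itgb2 was -0.50, -0.42 and -0.48 in R/R and -0.07, -0.12 and -0.22 in WT, without overlap. This ratio was chosen after the values were seen.

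Csf1r, the receptor for the growth factors CSF1 and IL-34 on which monocytes and macrophages depend, was at 170.8, 163.5 and 162.5 CPM in R/R lungs and 169.9, 173.1 and 171.2 CPM in WT lungs. R/R replicate 1 lay within the WT range. Csf1r had a log2 fold change of -0.05 (SE 0.05, edgeR adjusted p = 0.748), with an exact permutation p of 0.2. Of the exon bases of Csf1r, 15.1% also belong to Hmgxb3 on the opposite strand, and the counting used no strand.

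Lyz2 encodes lysozyme M, an enzyme that breaks bacterial cell walls, and lies at chr10:117277331-117282321 on the minus strand of GRCm38. It measured 5292, 5029 and 5131 CPM in R/R lungs and 3517, 4095 and 4898 CPM in WT lungs. The R/R lungs lay close together and above a wide WT range, whose highest lung, WT replicate 3, was near them. The log2 fold change was 0.30 (SE 0.11), a difference in level of 23.5%, with an edgeR p of 0.0171 and an adjusted p of 0.221. Without WT replicate 3 the log2 fold change was 0.43 and the edgeR adjusted p 0.0177, in a fit that called 3.56% of all genes tested. Without WT replicate 1 they were 0.19 and 0.595, and without any other single lung the adjusted p was 0.301 to 0.443.

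Levels can be compared between genes only per length, as TPM, transcripts scaled to a common total after division by exon length. In WT lungs Lyz2 was at 10844 ± 1532 TPM, Csf1r at 101.9 ± 2.87, Itgal at 56.7 ± 6.32 and Cd14 at 38.8 ± 7.98 (SD, n = 3). Spn followed at 27.9 ± 3.67 TPM, Ly6c2 at 22.2 ± 2.24, Fcgr4 at 17.7 ± 3.53 and Treml4 at 16.2 ± 0.349. F13a1 was at 12.5 ± 2.80 TPM and Itgam at 6.31 ± 0.203. Neighbours in this order overlapped between WT lungs for Spn and Ly6c2, Ly6c2 and Fcgr4, and Fcgr4 and Treml4, and the other neighbours did not. In R/R lungs the order was the same except that F13a1 (10.7 ± 2.12 TPM) stood above Treml4 (9.20 ± 2.67 TPM). Taken over its unshared exon bases alone, Itgam was at 20.1 ± 0.649 TPM in WT and 14.0 ± 0.968 TPM in R/R lungs, which moves it from the last place to among the patrolling genes.

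**Figure D2:**
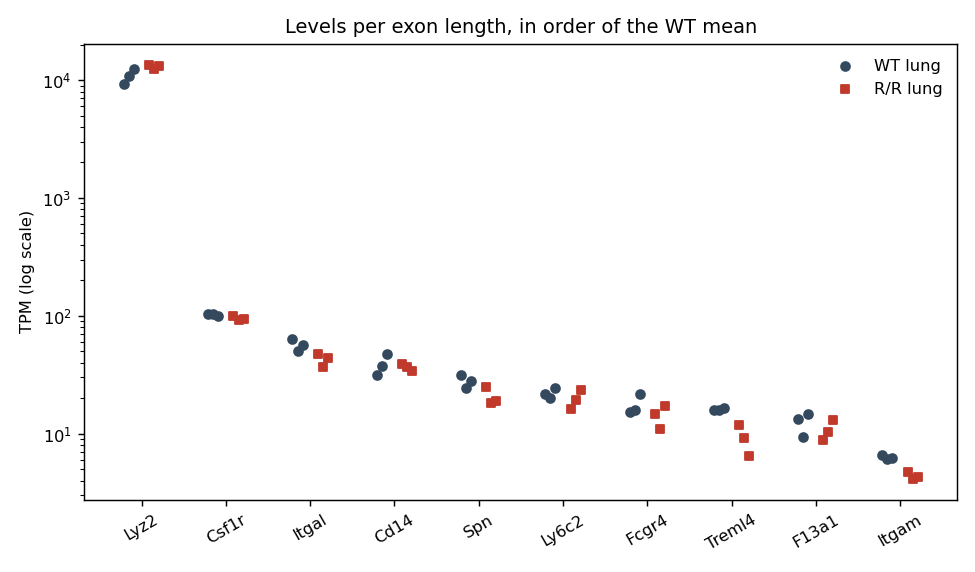
TPM (log axis) of the 10 monocyte genes in each WT lung (circles) and R/R lung (squares), ordered by the WT mean. Lyz2 lies far above all others at 10844 TPM in WT lungs, and Itgam is last at 6.31 TPM, a level taken over all of its exon bases.

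Of 12 other genes of classical monocytes, 8 had lower and 4 higher fitted levels in R/R lungs. Among the 12, edgeR called 2, 1 in each direction, against 1.75% of all tested genes. All R/R lungs lay under the WT range for 4 of them, against 9.5% of all tested genes, and over it for 1, against 9.17%. An unadjusted edgeR p under 0.05 was found for 7, against 14.2% of all tested genes. Thbs1, the matrix protein thrombospondin 1, was called higher at 218 to 290 CPM against 104 to 178 CPM (log2 fold change 0.81, edgeR adjusted p = 0.0341). That call was lost without replicate 2 or 3 of R/R or replicate 2 of WT (log2 fold change 0.73 to 0.89, edgeR adjusted p 0.0599 to 0.152). The list's median log2 fold change was -0.14. Ccr2, the receptor that defines the subset, had a log2 fold change of -0.32 (edgeR adjusted p = 0.216), with 32.3 to 40.2 CPM in R/R and 39.7 to 53.3 CPM in WT lungs.

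Of 12 other genes of patrolling monocytes, 9 had lower and 3 higher fitted levels, and 2 were called, against 1.75% of all tested genes. All R/R lungs lay under the WT range for 6 of them, against 9.5% of all tested genes, and over it for 2, against 9.17%. An unadjusted edgeR p under 0.05 was found for 8, against 14.2% of all tested genes. The part of other cells, such as B cells and neutrophils, in the values of this list was not tested. Whether the lists of the 2 subsets differ was not tested. Adgre4, an adhesion receptor of myeloid cells, was called lower, at 9.03 to 11.5 CPM in R/R against 14.5 to 15.6 CPM in WT lungs (log2 fold change -0.62, edgeR adjusted p = 0.0341). It was no longer called without replicate 2 or 3 of R/R or replicate 1 or 2 of WT (log2 fold change -0.65 to -0.56, edgeR adjusted p 0.0955 to 0.128). Nr4a1, the transcription factor that patrolling monocytes depend on and that many stimuli induce within minutes in other cells, was called higher. It measured 58.9, 90.5 and 74.2 CPM in R/R lungs and 41.4, 44.4 and 45.8 CPM in WT lungs (log2 fold change 0.76, edgeR adjusted p = 0.0148). Without WT replicate 1 its edgeR adjusted p was 0.0669 (log2 fold change 0.72). Cx3cr1, the fractalkine receptor, had a log2 fold change of -0.50 (edgeR adjusted p = 0.164), and its WT values of 40.1, 24.4 and 27.0 CPM were all above the R/R values of 24.1, 19.6 and 20.9 CPM. Without WT replicate 1, the highest lung, the log2 fold change of Cx3cr1 was -0.26 (edgeR adjusted p = 0.463). The list's median log2 fold change was -0.31.

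**Figure D3:**
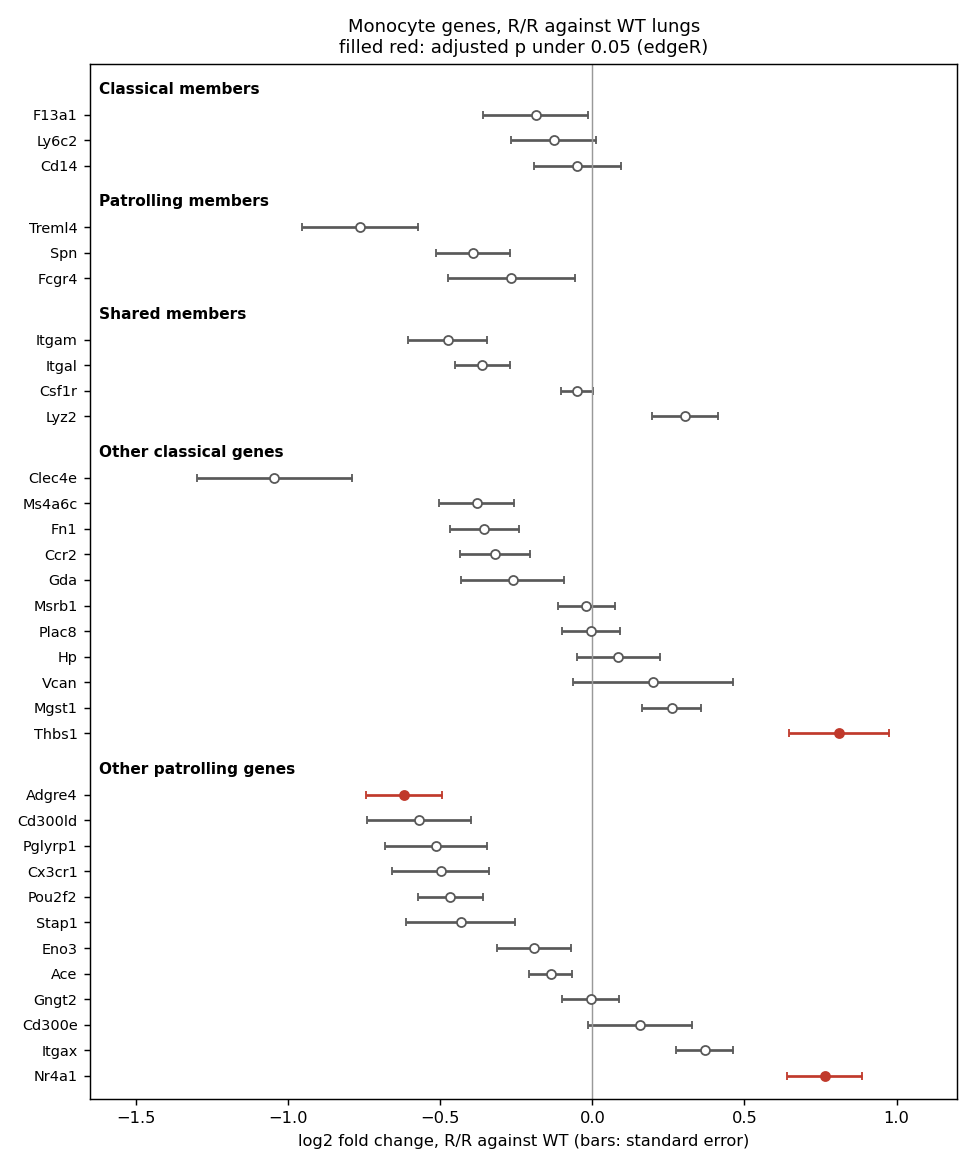
Log2 fold change of R/R against WT (x axis, bars are standard errors) of the monocyte genes and of 11 other classical and 12 other patrolling genes, with filled red points for an edgeR adjusted p under 0.05. Adgre4 is filled on the lower side, Thbs1 and Nr4a1 on the higher side, and no member is filled.

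Of 16 genes that direct monocyte development, 8 were lower and 8 higher, with a median of 0.00. Among the 16, 2 were called, against 1.75% of all tested genes. Nr4a1 and Cebpb, a transcription factor of monocytes and of many other cells, were called higher (Cebpb log2 fold change 0.32, edgeR adjusted p = 0.0491). The call of Cebpb was lost in limma-voom (adjusted p = 0.0563), with a filter of 1 CPM in 3 lungs (0.051), and without every single lung but R/R replicate 1 (log2 fold change 0.27 to 0.34, edgeR adjusted p 0.054 to 0.191). Csf1, a ligand of Csf1r, was at 78.3 to 86.4 CPM in R/R and 71.2 to 72.9 CPM in WT lungs, without overlap (log2 fold change 0.22, edgeR adjusted p = 0.11). The other ligand, Il34, had a log2 fold change of -0.06 (edgeR adjusted p = 0.874).

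Of 27 direct partners of the members, 25 were tested, 12 with lower and 13 with higher fitted levels. Among the 25, 1 was called, with a lower level, against 1.75% of all tested genes. The partners of Cd14 were Tlr4 (log2 fold change 0.07, edgeR adjusted p = 0.806) and Ly96, which encodes MD-2 (log2 fold change 0.50, edgeR adjusted p = 0.414). Ly96 measured only 2.44 to 3.23 CPM in R/R and 1.49 to 2.28 CPM in WT lungs. Tlr2 had the lowest p among those not called, with 26.5 to 30.6 CPM in R/R and 21.4 to 23.1 CPM in WT lungs (log2 fold change 0.37, edgeR adjusted p = 0.0558). The signalling chains were near WT, with log2 fold changes of -0.02 for Fcer1g, which Fcgr4 needs, and 0.01 for Tyrobp (edgeR adjusted p = 0.957 and 0.981), and each turned sign without single lungs.

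Of 14 near copies and family members, 6 were lower and 8 higher. Only Treml2 was called, with a lower level, against 1.75% of all tested genes. Treml2, a relative of Treml4 that B cells, neutrophils and macrophages carry, measured 5.83, 6.40 and 6.36 CPM in R/R lungs and 13.5, 8.55 and 10.5 CPM in WT lungs (log2 fold change -0.81, edgeR adjusted p = 0.0431). Its call was lost in limma-voom (adjusted p = 0.0646) and without any R/R lung or WT replicate 1 (log2 fold change -0.83 to -0.62, edgeR adjusted p 0.101 to 0.17). Itgax, the αX integrin chain of alveolar macrophages and dendritic cells, was on the other side, with 66.8 to 83.9 CPM in R/R and 54.8 to 65.9 CPM in WT lungs (log2 fold change 0.37, edgeR adjusted p = 0.077). Of 8 genes of monocyte recruitment, 5 were tested, 3 lower and 2 higher, and edgeR called none, DESeq2 called 1 and limma-voom 0. At an unadjusted p under 0.05 there were 3 of them in edgeR, against 14.2% of all tested genes. The endothelial ligand Cx3cl1 was at 84.4 to 99.3 CPM in R/R and 77.1 to 83.5 CPM in WT lungs (log2 fold change 0.20, edgeR adjusted p = 0.193), opposite in sign to its receptor Cx3cr1. The chemokines Ccl2, Ccl7 and Ccl8 had too few counts to be tested.

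Markers of some other cells that carry the same genes were on the same side of WT as several members. For the marker lists below, counts at an unadjusted p under 0.05 stand against 14.2% of all tested genes. Counts of genes called by edgeR stand against 1.75% (1.1% lower and 0.648% higher in R/R). Those of DESeq2 stand against 3.16% and those of limma-voom against 1.47%. Beside Lyz2, the 10 alveolar macrophage markers summed to 1023 to 1151 CPM in R/R and 722 to 915 CPM in WT lungs. Of the 10, 9 were higher and 1 lower, 7 had an unadjusted edgeR p under 0.05, and 2 were called higher. The called ones were Chil3 (log2 fold change 0.68, edgeR adjusted p = 0.0233) and Mrc1 (log2 fold change 0.42, edgeR adjusted p = 0.0486). Both calls were lost without every single lung but WT replicate 3, at log2 fold changes of 0.59 to 0.73 for Chil3 (edgeR adjusted p 0.0534 to 0.0973) and 0.31 to 0.48 for Mrc1 (edgeR adjusted p 0.0917 to 0.151). The call of Mrc1 was also lost in limma-voom (adjusted p = 0.0506), without TMM (0.0516) and with a filter of 1 CPM in 3 lungs (0.0533). The 10 alveolar type 2 markers summed to 25584 to 26960 CPM in R/R and 20061 to 25184 CPM in WT lungs, with 10 of 10 higher and none called by edgeR (4 at an unadjusted p under 0.05, 1 called by DESeq2 and 0 by limma-voom). For both lists, as for Lyz2, WT replicate 3 was the highest WT lung. No marker of either list was at 0. The 9 tested interstitial macrophage markers summed to 948 to 1119 CPM in R/R and 919 to 984 CPM in WT lungs, with 7 higher and 2 lower. Among these 9, 5 had an unadjusted edgeR p under 0.05, and 1, again Mrc1, was called higher. All R/R lungs lay over the WT range for 5 of the 9, against 9.17% of all tested genes. Neutrophils also carry Lyz2, and their 9 tested markers all had lower fitted levels in R/R lungs, opposite in sign to Lyz2. The part of all these cells in the Lyz2 values was not tested.

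Beside Itgal and Spn, the 10 T cell markers summed to 39.1 to 49.6 CPM in R/R and 58.8 to 79.97 CPM in WT lungs, with 10 of 10 lower and none called by edgeR (6 at an unadjusted p under 0.05, 3 called by DESeq2 and 0 by limma-voom). The 10 B cell markers summed to 121 to 158 CPM in R/R and 211 to 259 CPM in WT lungs, with 10 of 10 lower. All 10 had an unadjusted edgeR p under 0.05. Of these, 5 were called lower, against 1.1% of all tested genes. Among the called were Ms4a1, Fcer2a, Pax5 and Cd79a at log2 fold changes from -0.51 to -0.99. Fcer2a, Pax5 and Cd79a were no longer called without replicate 2 or 3 of R/R or replicate 1 or 2 of WT (log2 fold changes -0.76 to -0.46, edgeR adjusted p 0.0642 to 0.198). In limma-voom the calls of Pax5 (adjusted p = 0.0526) and Cd79a (0.0511) were lost, and with a filter of 1 CPM in 3 lungs that of Cd79a (0.0535). The 10 NK cell markers overlapped, at 41.7 to 55.2 CPM in R/R and 30.2 to 59.8 CPM in WT lungs, with 4 lower, 6 higher and none called by edgeR (1 at an unadjusted p under 0.05, 1 called by DESeq2 and 0 by limma-voom). No marker of these lists was at 0. Their part in the Itgal and Spn values was not tested.

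Beside Itgam, the 9 tested neutrophil markers were all lower and none was called by edgeR (7 at an unadjusted p under 0.05, 2 called by DESeq2 and 0 by limma-voom). They summed to 114, 83.0 and 82.9 CPM in R/R lungs and 229, 84.6 and 219 CPM in WT lungs, so that WT replicate 2 lay with the R/R lungs. The defining neutrophil marker Ly6g, and also Camp and Ngp, had too few counts to be tested. The part of neutrophils in the Itgam values was not tested.

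Beside the patrolling genes, the 8 tested red cell markers were all lower, 7 of them at an unadjusted edgeR p under 0.05. They summed to 1219, 1775 and 2281 CPM in R/R lungs and 2686, 3296 and 2480 CPM in WT lungs, and Hba-a1 was called lower (log2 fold change -0.78, edgeR adjusted p = 0.0478). That call was lost in DESeq2 (adjusted p = 0.0869), without TMM (0.0508), with a filter of 1 CPM in 3 lungs (0.0534), and without replicate 1 or 2 of either genotype (log2 fold change -0.81 to -0.58, edgeR adjusted p 0.0567 to 0.169). Whether the lungs used for RNA were rinsed of blood is not stated in the sources used here. Among R/R lungs, Treml4 was highest in replicate 1, where the red cell markers were lowest. This is the order of 3 lungs, seen after the values were known, and a relation between the 2 was not tested. The 9 tested platelet markers overlapped, at 32.2 to 57.5 CPM in R/R and 42.4 to 46.6 CPM in WT lungs, and Gp1bb was at 0 in every lung. The 10 endothelial markers were at 6179 to 6440 CPM in R/R and 6105 to 6935 CPM in WT lungs. The 10 dendritic cell markers were at 397 to 469 CPM in R/R and 415 to 442 CPM in WT lungs, with 5 lower and 5 higher. The part of these cells in the values of the patrolling genes was not tested.

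**Figure D4:**
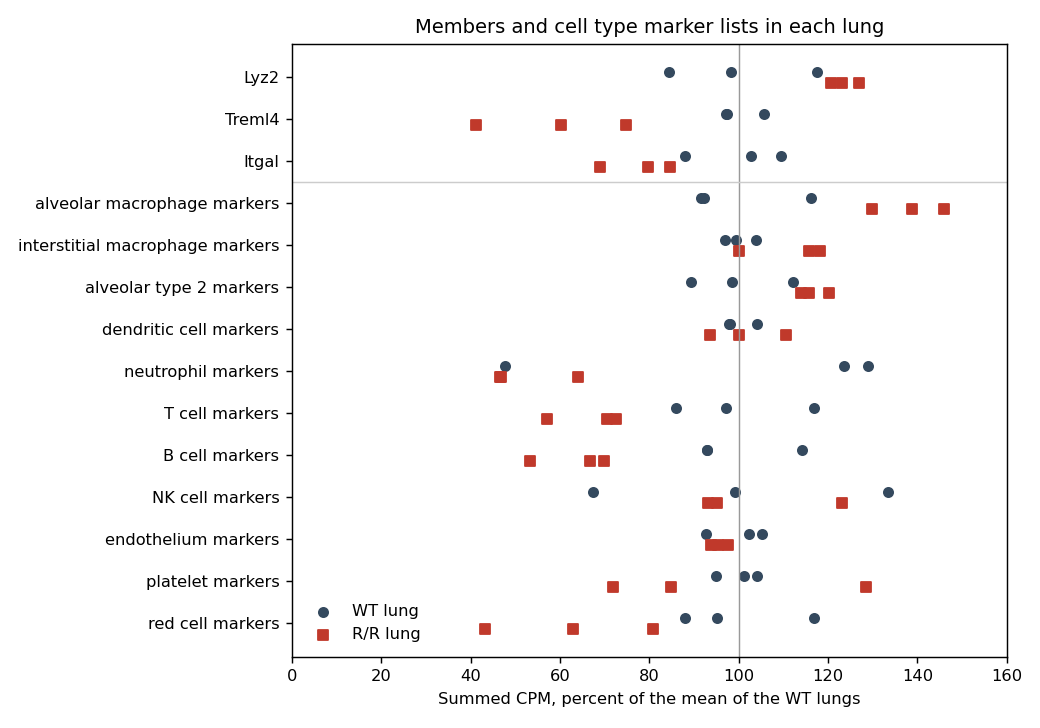
Lyz2, Treml4 and Itgal (top) and the summed CPM of each cell type marker list in each lung, as a percent of the mean of the WT lungs (x axis, circles for WT, squares for R/R). Alveolar macrophage and type 2 markers are above WT in all R/R lungs as Lyz2 is, T, B and red cell markers are below WT as Treml4 and Itgal are, and the other lists overlap.

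Among the 14190 tested genes whose log2 CPM averaged 1 or more, those whose pattern over the 6 lungs was nearest to the patrolling mean were Prkcb, Tspan32, Tgm4, Rasgrp1 and Lysmd1. Their root-mean-square difference from it, each gene centred on its own mean, was 0.02 to 0.07 on the log2 scale. Nearest to the classical mean were Slc38a1, Cd248, Lrrc23, Acta2 and Myh11, at 0.03 to 0.06. These names describe patterns over 6 lungs only.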

How the data were processed

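RNA from the lungs of 3 R/R mice was compared with that of 3 WT mice, with groups and replicate numbers from the sample labels. Reads (paired, 150 bp) were aligned by the authors with HISAT2 2.1.0 to GRCm38. The authors deposited, for each gene, raw counts of the read pairs that featureCounts 2.0.1 assigned to it with no strand setting on the GENCODE M25 annotation, whose exons the table lists and which were used for exon overlaps and lengths. Pairs mapping to several places or genes were not counted. One column was entered in the records here as estimated counts, because an automatic check misread the first line of the table the authors deposited. Like the other 5 columns it holds whole raw counts, and nothing was rounded. The submitters' notes name DESeq2 and the supplement edgeR, and the sources differ on RNA extraction (Trizol or RNeasy) and on the library kit.

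Genes were filtered (filterByExpr, minimum count 10, minimum total 15), scaled by TMM, and tested over the whole table with glmQLFit and glmQLFTest (edgeR 4.0.16, limma 3.58.1, R 4.3.3). Genes with an adjusted p (Benjamini-Hochberg) under 0.05 were called. Log2 CPM used a prior count of 0.5. Symbols came from GENCODE M21 of the same assembly for 55141 of 56262 identifiers, and promoter sequences from RefSeq, which held usable windows for 7 members. Coordinates and sequences of Cd14 and Csf1r are not reported here. Library totals were 16815020 to 18071818 in R/R and 16501092 to 18141067 in WT lungs. These limit precision, and counting error is only part of the spread between lungs. The labels give separate lungs, which the supplement calls biological replicates.

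The members and lists were chosen with earlier results of these data known. Named genes, some of which are not reported here, were the 10 members, every called gene and the 2 lowest p-values of each list, fixed partners and copies, and the 5 genes nearest in pattern to the classical and the patrolling mean. Alternatives were DESeq2 1.42.0, limma-voom, other scalings and filters, a replicate block, an adjusted p of 0.1 and each lung left out in turn.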

Additional observations from a re-analysis of the deposited data

How the results depend on the processing

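The main count of monocyte genes called was 0. It was 3 in DESeq2 (Treml4, Itgal and Lyz2), 4 with no filter beyond 1 count (Treml4, Spn, Itgal and Lyz2), 2 at an adjusted p under 0.1 (Treml4 and Itgal), and 0 to 1 with each lung left out (1 without R/R replicate 1, Treml4, and 1 without WT replicate 3, Lyz2). It stayed at 0 in limma-voom, without TMM, with upper-quartile factors, with DESeq2 size factors and with a filter of 1 CPM in 3 lungs. Called genes of the other lists numbered 14, against 33 in DESeq2, 9 in limma-voom and 67 without the filter. With each lung left out they numbered 3 to 28, with 3 without R/R replicate 2 or WT replicate 1. They numbered 8 without R/R replicate 3 and 28 without WT replicate 3. The share called of all genes tested was 1.75%, against 3.16% in DESeq2, 1.47% in limma-voom and 3.53% without the filter. With each lung left out that share was 0.372% to 3.56%. With the replicate number as a block, 2 members (Spn and Itgal) and 30 genes of the other lists were called, and 2.61% of all tested genes, while Cebpb was no longer called (adjusted p = 0.0517). Over all tested genes, same-numbered lungs correlated at r of -0.01, -0.00 and -0.01 after group means were removed. That shows no shift shared over the whole table, but it cannot exclude a pairing that moves only some genes. Signs turned when lungs were left out for Ly6c2 (-0.261 to 0.0047), Cd14 (-0.188 to 0.143), Fcer1g (-0.111 to 0.0865), Il34 (-0.13 to 0.021), Itgb2 (-0.124 to 0.0694), Ly6c1 (-0.0251 to 0.0451) and Tyrobp (-0.0911 to 0.1002), and for Ly6c1 also in DESeq2 and with its size factors (-0.0010042 and -0.0010454). The cause of these changes was not tested. With 3 lungs a genotype, the exact permutation test cannot go below 0.1, and the members under 10 CPM (Treml4, Fcgr4 and Itgam) rest on 66 to 170 read pairs a lung, which limits their precision.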

Other observations

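Some ratios within each lung were looked at after the values were seen and are given as a description. Log2 Lyz2 minus log2 Csf1r was 4.95, 4.94 and 4.98 in R/R lungs and 4.37, 4.56 and 4.84 in WT lungs, without overlap. Log2 Lyz2 minus log2 Sftpc, the surfactant gene of alveolar type 2 cells, was -1.35, -1.46 and -1.28 in R/R lungs and -1.51, -1.45 and -1.31 in WT lungs, and overlapped. Log2 Lyz2 minus log2 Chil3, a chitinase-like gene of alveolar macrophages, was 2.99 to 3.11 in R/R lungs and 3.33 to 3.59 in WT lungs, so that Chil3 stood further above WT than Lyz2 did. Log2 Itgal minus log2 Cd3e overlapped, at 3.78 to 4.77 in R/R lungs and 4.08 to 4.43 in WT lungs. Cd3e is a single T cell marker, with a log2 fold change of -0.42, where the median of the 10 T cell markers was -0.64. This ratio therefore does not stand for the whole list. Log2 Treml4 minus log2 Csf1r was -4.59, -4.84 and -5.38 in R/R lungs and -4.21, -4.24 and -4.10 in WT lungs, without overlap. Log2 Treml4 minus log2 Ly6c2 was -0.90, -1.53 and -2.29 in R/R lungs and -0.90, -0.79 and -1.02 in WT lungs, and overlapped.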
